A study of Caenorhabditis elegans with 96 samples.

Results

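The 11 recombinant inbred advanced intercross lines that the sample titles place in batch 4 were compared with the 74 lines of the other batches, and the CB4856 library of batch 4 with the 6 other CB4856 libraries. The 11 lines, QX538 to QX544, QX546 and QX562 to QX564, were chosen by the batch number in the title alone, and make up 11 of 85 lines and 11 of the 96 samples. The study, by its title, concerns what regulates lifespan among recombinant inbred strains of Caenorhabditis elegans, a nematode. Each line is a homozygous mosaic of 2 parents, the standard laboratory strain N2 and the Hawaiian wild strain CB4856, and was represented by 1 library of RNA from whole animals at L4, the last larval stage. All samples carry the same control label for treatment. Per the labels' protocols, every strain was kept on Escherichia coli OP50, synchronised by hypochlorite treatment and overnight hatching without food, and then raised on E. coli HT115. The other lines were 7 of batch 2, 10 of batch 3, 13 of batch 6, 11 of batch 7, 19 of batch 8 and 14 of batch 9. CB4856 was present once in each of the 7 batches, and N2 had 4 libraries, of which 0 were in batch 4.

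The labels do not say what a batch shared (culture, extraction or sequencing). All 11 lines share 1 batch, so the p-values below measure the spread between lines, and a difference between batch 4 and the rest cannot be told apart from other differences between those sets of lines. CB4856 is the check with a fixed genotype, since the same strain was measured once in every batch.

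Worms eat bacteria, and the intestine is both the site of digestion and the main barrier to infection. Intestinal cells of C. elegans secrete C-type lectins, lysozymes, saposin-like proteins and small antibacterial factors, and levels of their transcripts are known to depend on the bacteria the animals meet. Other sets of intestinal genes follow food, oxidative stress or metals, among them flavin monooxygenase, glutathione S-transferase, metallothionein and propionate breakdown genes.

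The 11 libraries held 22226195 to 22822327 gene counts, against 22069702 to 23986813 in the 74 other lines. The medians were 22605790 and 23482494, so the batch 4 lines lay toward the low end of depth. CB4856 of batch 4 held 23022389, against 23466513 to 24001627 in the 6 others. That library also lay outside the 6 others in reads within genes (91.7% against 92.5% to 93.9%) and unmapped reads (0.697% against 0.544% to 0.652%). Its reads mapping to several places were 5.91%, against 3.86% to 5.38%. The batch 4 lines had medians of 92.8%, 0.597% and 4.88%, against 92.5%, 0.561% and 5.25% in other lines. Between 18796 and 19454 genes had a count in a batch 4 line, against 18588 to 19891 in other lines. The batch 4 lines did not stand apart on the main axes of variation: they spanned -28.0 to 60.1 on component 1, which carried 21.5% of the variance of the lines, while the other lines spanned -54.9 to 78.4. No libraries were copies of each other, since over the 66 pairs within batch 4 chi-square divided by its degrees of freedom was at least 11.7. At 119 genes expressed in 1 parent and near absent in the other, the batch 4 lines were in the N2 state in 48.7% of calls and the other lines in 45.8%. On chromosome II the share was 57.8% in batch 4, above the 32.97% to 57.02% of the 6 other batches, and on chromosomes III, IV and V it lay within their range. Levels below are counts scaled to library size (CPM) after TMM normalisation over all libraries. Genes are named by a rule on the lines alone, given under processing, and genes outside it are marked as chosen after their values were seen.

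In batch 4, 32 of 135 C-type lectin genes and 8 of 17 infection response genes were higher. Of nuclear respiratory chain genes 30 of 44 were lower, and of propionate breakdown genes 9 of 12. The gene lists were chosen with earlier results of these data known. Of 15717 genes tested, 1010 (6.43%) differed between the 11 lines and the 74 others by edgeR (quasi-likelihood test, adjusted p-value below 0.05). In batch 4, 435 were higher (2.77%) and 575 lower (3.66%). The rises were larger than the falls: with a fold change of at least 2 also required, 139 genes were higher (0.884%) and 44 were lower (0.28%). Without the lines of batch 9, whose levels of several of these genes were extreme, 1608 genes passed. The test on sums of counts, given next, also took in cld-1, sri-36 and dod-21, which were too low in the lines to be tested there. These genes are thus not part of the 1010. When the counts were summed so that each batch was 1 sample, 11 genes passed in edgeR, all 11 higher in batch 4: clec-42, C01G10.17, cld-1, Y37H2A.14, T19C9.8, srlf-3, srlf-37, sri-36, Y38H6C.23, dod-21 and clec-71, of which cld-1, T19C9.8, sri-36, Y38H6C.23, C01G10.17 and dod-21 are named after their values were seen.

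Any batch may differ from the mean of the rest, so each batch was also set against the others in turn. By the test that gave 1010 genes for batch 4, between 3390 and 5005 genes differed in batches 2, 3, 7, 8 and 9, and 0 in batch 6 by edgeR, where 1254 genes had an unadjusted p-value under 0.05. A stricter rule asked that the lines of a batch differ from the lines of each of the 6 other batches, each time in the same direction and with an adjusted p-value below 0.05 by edgeR. By it batch 4 stood apart at 99 genes higher (0.618% of 16030) and 60 lower (0.374%). Batch 9 stood apart at 427 higher and 140 lower, and the other batches at between 0 and 70 higher and between 0 and 59 lower. Without the lines of batch 9, batch 4 stood apart from the 5 remaining batches at 263 genes. Of these 99 and 60 genes, 158 also passed the test against all other lines, 98 higher and 60 lower, and these are the genes called apart below.

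**Figure D1:**
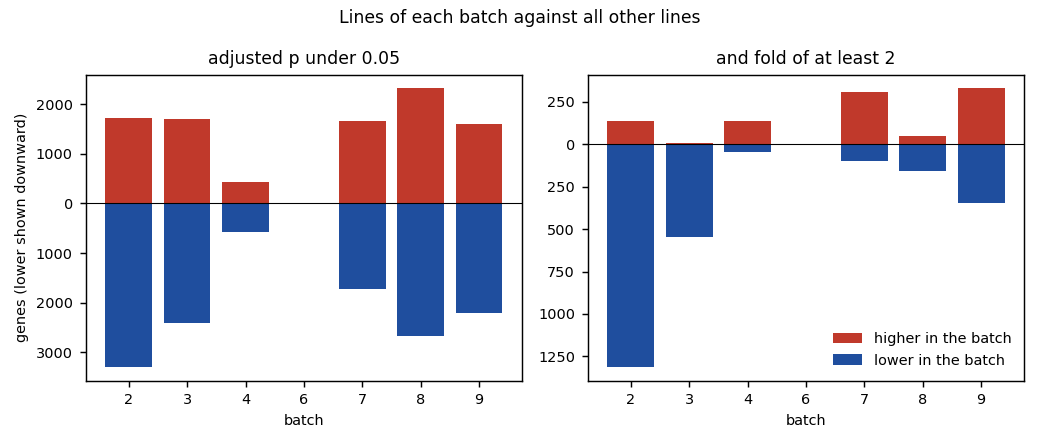
Number of genes that differed between the lines of each batch (x axis) and all other lines by edgeR, with adjusted p-values below 0.05 (left) and with a fold change of at least 2 as well (right). Bars above 0 count genes higher in the batch, bars below 0 genes lower. Batch 4 had 435 higher and 575 lower, and 139 higher and 44 lower with the fold change required.

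Most of the genes called apart lay on the side of the shift in each of the 11 lines, though not every gene did so in every line. Between 95 and 98 of the 98 higher genes were above the median of the 74 other lines in each batch 4 line, and between 58 and 60 of the 60 lower genes were below it. The genes were chosen on these lines, so this describes how evenly the shift was shared and is no test. The median difference over the 98 genes was smallest in QX540, at 0.88 on the log2 scale, and largest in QX562, at 1.66. In the 74 other lines it ran from -0.62 to 0.68. Over the 60 lower genes it ran from -0.55 in QX562 to -0.24 in QX538, while the 74 other lines spanned -0.30 to 0.19, so the ranges met for these smaller changes.

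Only 5 genes had all 11 batch 4 lines above all 74 other lines (0.0318% of genes tested), and 1 gene had all 11 below (0.00636%). These 6 are named because their count is small, after their values were seen. C01G10.4 (WBGene00007231), C01G10.5 (WBGene00007232) and C01G10.17 (WBGene00044658) are neighbours on chromosome V, between 15089076 and 15091114 on WBcel235. C01G10.4 was at 4.02 CPM in the lowest batch 4 line, 7.49 in the median line and 18.5 in the highest, against 0.0413, 0.488 and 4.01 in the other lines. C01G10.5 was at 2.45, 6.205 and 12.5 CPM against 0, 0.259 and 1.89. C01G10.17 was at 0.831, 2.39 and 5.61 CPM against 0, 0.127 and 0.670. The neighbours thus rose together, by 3.74 ± 0.30, 4.02 ± 0.29 and 4.26 ± 0.25 on the log2 scale (SE, adjusted p 9.99e-18, 3.11e-20 and 8.25e-25, edgeR). Y38H6C.23 (WBGene00012634; V, 20555690 to 20556360) rose by 2.27 ± 0.19 (adjusted p 1.37e-16, edgeR), with its lowest batch 4 line at 2.22 CPM and the highest other line at 2.18. F22E5.1 (WBGene00017703; II, 2673775 to 2677593) rose by 2.50 ± 0.21 (adjusted p 4.20e-16, edgeR), with its lowest batch 4 line at 3.49 CPM and the highest other line at 3.42. The sixth is fmo-2, described with the genes that fell. C01G10.17 and F22E5.1 are protein coding in the annotation, as are the other 4.

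The largest rises among genes with a mean of at least 1 log2 CPM were led by B0024.4, the lectin gene clec-71 and srlf-3. B0024.4 (WBGene00007097; V, 10297399 to 10298985) was at 14.8 CPM in the lowest batch 4 line, 45.2 in the median and 96.7 in the highest, against 0.972, 3.44 and 36.4 in the other lines. The ranges overlapped, with 4 of the 74 other lines at or above the lowest batch 4 line. It rose by 3.16 ± 0.31 on the log2 scale (SE, adjusted p 1.03e-13, edgeR). The gene clec-71 (WBGene00021582; IV, 3937458 to 3939979) was at 9.40, 33.2 and 75.3 CPM against 0.220, 2.54 and 19.5, a rise of 3.09 ± 0.34 (adjusted p 1.81e-11, edgeR). The gene srlf-3 (WBGene00016180; IV, 8487483 to 8488490) was at 10.01, 18.04 and 36.6 CPM against 0.552, 1.84 and 16.7, a rise of 3.06 ± 0.21 (adjusted p 3.42e-21, edgeR). A single other line reached the lowest batch 4 line for srlf-3, and 6 did for clec-71. The genes Y47H9C.1 (2.75 ± 0.31), T07H8.11 (2.56 ± 0.39), Y39G8B.9 (2.21 ± 0.26), F49F1.5 (2.15 ± 0.33), Y37H2A.14 (2.13 ± 0.22) and F55G11.2 (2.03 ± 0.23) rose by the log2 changes given, each called apart. The last of the 10 was cpr-3.

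The batch 4 lines were not alike at these genes. T07H8.11 (WBGene00304201; V, 6950807 to 6951406) was at 0.262 CPM in QX538, 0.560 in QX540, 1.19 in QX542 and 1.21 in QX544, and between 6.11 and 27.1 in the other 7 batch 4 lines. The 74 other lines had a median of 1.08 CPM for it, and 58 of them lay at or above the lowest batch 4 line. Y47H9C.1 (WBGene00012947; I, 11830985 to 11833183) was at 2.54 CPM in QX538 and at 8.14 to 26.6 in the other batch 4 lines, against a median of 1.70 in the 74 other lines. The low lines were partly the same, as QX538 was the lowest of the 11 for both genes. The parents also differ at both genes. T07H8.11 was at 0.0411 to 0.293 CPM in N2 and 1.38 to 6.25 in the CB4856 libraries of other batches. Y47H9C.1 was at 0.251 to 0.927 CPM in N2 and 1.42 to 2.92 in those CB4856 libraries. Whether the low lines carry the N2 allele was not tested.

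The gene cpr-3 (WBGene00000783; V, 15296834 to 15298700) encodes a cathepsin B-like cysteine protease. It was at 18.4 CPM in the lowest batch 4 line, 30.7 in the median and 56.4 in the highest, against 4.47, 8.32 and 18.7 in the other lines. Only 1 of the 74 other lines reached the lowest batch 4 line, and the rise was 1.81 ± 0.13 (SE, adjusted p 1.57e-19, edgeR). Of a list of 21 cathepsin-type protease genes drawn up after values were seen, 3 were higher and 2 lower (5 and 2 without the lines of batch 9). The share that passed was 23.8%, against 6.43% of all genes tested. The protease cpr-1 was among the lower ones, at -0.92 ± 0.26 (adjusted p 0.0121, edgeR). Among the genes called apart with a mean of at least 1 log2 CPM and not among the 10 largest rises, the 3 smallest p-values belonged to C49C3.9, K08D8.6 and F52E1.14. K08D8.6 (WBGene00010660; IV, 12887062 to 12890508) was at 66.6, 105.8 and 170.3 CPM against 21.7, 46.8 and 81.6, a rise of 1.19 ± 0.11 (adjusted p 2.04e-15, edgeR). C49C3.9 rose by 1.32 ± 0.12 (adjusted p 9.02e-16, edgeR). F52E1.14, whose exons overlap those of hsp-17, a small heat shock protein gene, rose by 1.05 ± 0.10 (adjusted p 1.21e-14, edgeR), and reads of overlapping genes cannot be separated by strand in these libraries.

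**Figure D2:**
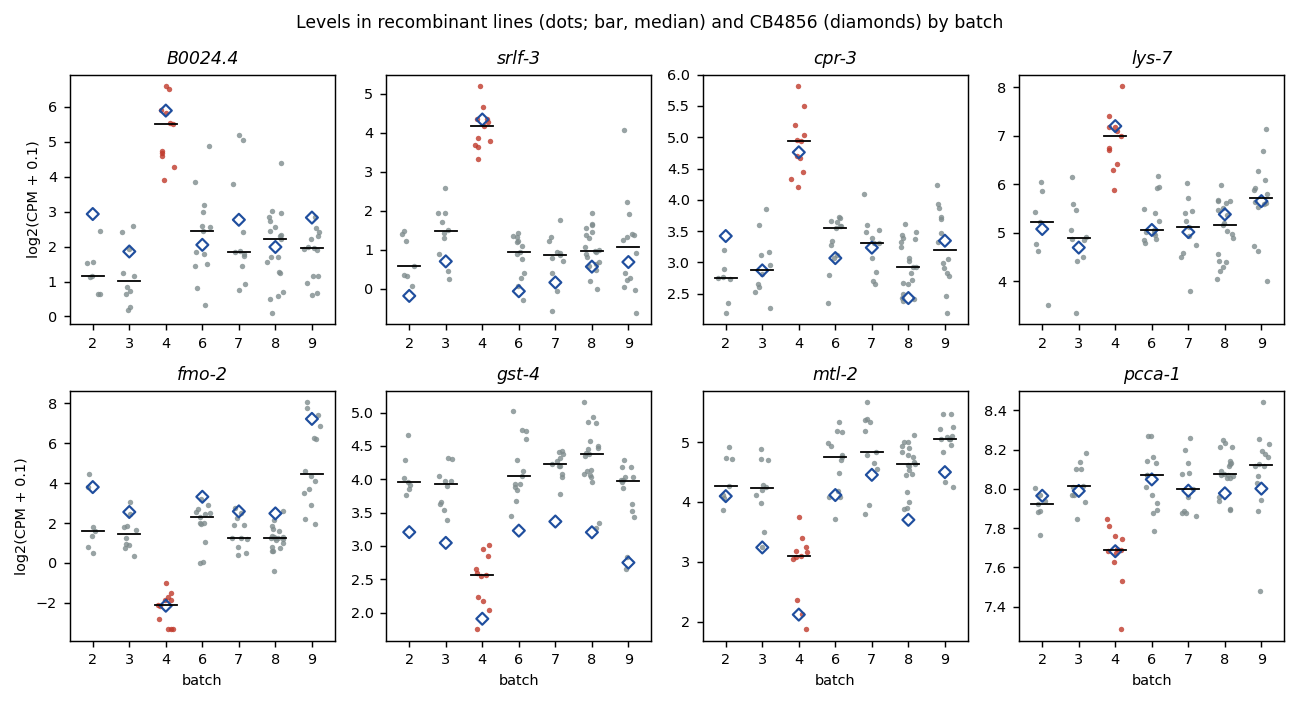
Level of 8 genes, as log2(CPM + 0.1), in each recombinant line (dots, red in batch 4, with a bar at the median) and in CB4856 (open diamonds) by batch. B0024.4, srlf-3, cpr-3 and lys-7 were higher in batch 4 and fmo-2, gst-4, mtl-2 and pcca-1 lower, and the CB4856 diamond of batch 4 lies with the lines of its batch.

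Of 17 genes on a list of infection response genes, 8 were higher, 1 was lower and 8 did not pass. The share that passed was 52.9%, against 6.43% of all genes tested. The median log2 change was 0.92 against -0.01 over all genes tested. The gene dod-19 (WBGene00022644; V, 411782 to 414759), first known as a gene downstream of the insulin pathway factor DAF-16, was at 237.6 CPM in the lowest batch 4 line, 312.2 in the median and 540.1 in the highest. The other lines were at 7.42, 118.6 and 379.5 CPM, 2 of the 74 reaching the lowest batch 4 line, and the rise was 1.48 ± 0.17 (SE, adjusted p 1.39e-10, edgeR). The infection response gene irg-3 (WBGene00018760; V, 2592591 to 2595062) was at 14.97, 20.02 and 30.1 CPM against 5.56, 11.3 and 17.8, a rise of 0.92 ± 0.11 (adjusted p 1.03e-09, edgeR). Members picked after their values were seen include dod-24, at 175 ± 54.7 CPM (SD, n = 11) against 55.2 ± 38.3 (n = 74), and C17H12.8, at 149 ± 35.2 against 52.7 ± 48.7. Their rises were 1.69 ± 0.26 and 1.51 ± 0.29 (SE, adjusted p 1.42e-06 and 9.55e-05, edgeR). The member that fell was fmo-2. A fit on 1 sum of counts per batch also took in genes too low in the lines to be tested there, dod-21 among them. It therefore does not bear on these 17 genes alone.

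C-type lectins bind carbohydrates, and many of the worm's are secreted by the intestine. Of 135 lectin genes tested, 32 were higher and 5 lower, or 27.4%, against 6.43% of all genes tested. Of the former 12 were called apart, and of the latter 1. Of the 16030 genes set against each other batch, 0.618% stood apart as higher and 0.374% as lower. The median over the list was 0.05, so most members were close to the other lines. The gene clec-42 (WBGene00008891; V, 18191412 to 18194168) was at 1.19, 2.75 and 6.54 CPM against 0, 0.192 and 1.38 in the other lines, a rise of 3.65 ± 0.27 (SE, adjusted p 1.55e-19, edgeR). The gene clec-17 (WBGene00008477; I, 12430028 to 12431500) was at 1.24, 2.12 and 7.38 CPM against 0, 0.176 and 2.33, a rise of 3.44 ± 0.30 (adjusted p 1.21e-15, edgeR). For each of them a single other line reached the lowest batch 4 line. Among abundant lectins, clec-41, chosen after its values were seen, was at 153 ± 38.1 CPM (SD, n = 11) against 48.1 ± 24.5 (n = 74). Summed over the list, lectins were at 4241 to 5563 CPM in batch 4 lines and 3221 to 4955 in the others. With 1 sum of counts per batch, 2 lectins passed in edgeR, clec-42 and clec-71.

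Lysozymes, which cleave bacterial cell walls, gave 3 higher and 0 lower of 13 (23.1%, against 6.43% of all genes tested). The gene lys-7 (WBGene00003096; V, 3481432 to 3482600) was at 58.6, 127.9 and 261.4 CPM against 10.04, 36.9 and 140.8, a rise of 1.67 ± 0.19 (SE, adjusted p 1.12e-10, edgeR), and 13 of the 74 other lines overlapped the batch 4 range. The others were lys-2, at 0.87 ± 0.18, and lys-1, at 0.59 ± 0.12. Small antimicrobial peptides went in both directions, with 5 higher and 5 lower of 38, or 26.3% (8 and 5 without the lines of batch 9). The antibacterial factor-related genes abf-4 (WBGene00000015; V, 20557876 to 20558370) and abf-5 (WBGene00000016; X, 12792854 to 12793386) rose, by 2.63 ± 0.34 and 1.26 ± 0.12 (adjusted p 6.92e-09 and 3.88e-14, edgeR). The saposin-like gene spp-1, named after its values were seen and overlapping T07C4.3, fell from 45.5 ± 9.34 CPM (SD, n = 74) to 28.2 ± 6.10 (n = 11), by 0.67 ± 0.10 on the log2 scale (adjusted p 1.90e-07, edgeR). Of 27 genes of the intracellular pathogen response, which follows microsporidia and viruses in C. elegans, 3 were higher and 1 lower (14.8%). Among them skr-3 was higher by 0.48 ± 0.09 and pals-6 by 1.03 ± 0.26 (adjusted p 0.00014 and 0.00483, edgeR).

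Other gene families were counted against the 6.43% of all genes tested that passed. Cytochrome P450 genes gave 8 higher and 0 lower of 63 (13 higher without the lines of batch 9), with cyp-13A5 at 1.70 ± 0.29 and cyp-35D1 at 1.06 ± 0.20 (adjusted p 9.30e-06 and 8.74e-05, edgeR). UDP-glucuronosyltransferases gave 7 higher and 6 lower of 62 (11 and 7 without the lines of batch 9), and glutathione S-transferases 5 higher and 3 lower of 43 (5 and 5). F-box genes, whose products select proteins for ubiquitin ligases, gave 11 higher and 0 lower of 164, or 6.71%, a share near that of all genes. They were led by fbxa-88 at 2.39 ± 0.32 and fbxa-44 at 1.69 ± 0.20 (adjusted p 2.03e-08 and 1.15e-10, edgeR). The exons of fbxa-88 overlap those of fbxa-18. MATH and BTB genes gave 3 higher and 0 lower of 72 (4.17%), and nuclear hormone receptor genes 8 higher and 2 lower of 180 (5.56%; 16 and 3 without the lines of batch 9), both below the share of all genes. Acyltransferase homologues of the oac family gave 4 higher and 1 lower of 30 (8 and 1 without the lines of batch 9), and neuropeptide genes 2 higher and 5 lower of 120 (5.83%; 3 and 8 without the lines of batch 9). Among the latter the insulin-like peptide gene ins-7 rose by 1.14 ± 0.18 (adjusted p 1.22e-06, edgeR) and was called apart.

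Of 95 genes with chemoreceptor-type symbols, 10 were higher and 2 lower, or 12.6%, against 6.43% of all genes tested. The list was matched on symbols alone. Several members carry srlf symbols, for which no role was given, so they are not shown to be receptors. Of 18 srlf genes, a list drawn up after values were seen, 4 were higher and 1 lower (27.8%). The gene srlf-37 (WBGene00004177; V, 603610 to 604205) was at 1.64, 6.99 and 11.7 CPM in the lowest, median and highest batch 4 lines. The other lines were at 0, 0.220 and 3.13 CPM, with 2 of 74 at or above the lowest batch 4 line. The rise was 4.17 ± 0.31 (SE, adjusted p 1.69e-19, edgeR). With 1 sum of counts per batch, srlf-3, srlf-37 and sri-36 of this list rose by 3.05, 4.14 and 4.97 on the log2 scale. The gene sri-36 was too low in the lines to be among the 95.

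The largest fall was that of fmo-2 (WBGene00001477; IV, 10682524 to 10684367), a flavin-containing monooxygenase gene known in C. elegans to be induced by fasting and by low oxygen. It was near absent from batch 4: 0 CPM in the lowest line, 0.129 in the median and 0.391 in the highest. The other lines ran from 0.662 CPM, with a median of 3.46, to 268.6, so the groups did not overlap. The fitted fall was -6.91 ± 1.27 (SE, adjusted p 3.93e-05, edgeR), which the high lines of batch 9 enlarge: without them it was -4.69. Median levels were 2.94, 2.68, 4.78, 2.31 and 2.29 CPM in batches 2, 3, 6, 7 and 8, and 22.2 in batch 9. Of 21 genes of the fasting response, 1 was higher and 2 were lower (3 and 3 without the lines of batch 9). These 3 genes are 14.3% of the list, against 6.43% of all genes tested.

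Several other genes that fell encode enzymes of alcohol, stress or lipid metabolism, a metal-binding protein or a transporter. The alcohol dehydrogenase gene adh-1 (WBGene00010790; V, 11888248 to 11889650), whose exons overlap sodh-2, was at 24.02, 28.5 and 43.3 CPM in the lowest, median and highest batch 4 lines, against 28.7, 111.8 and 2678 in the others. Its fall was -2.71 ± 0.55 (SE, adjusted p 0.000265, edgeR), and -1.78 without the lines of batch 9. The gene gst-4 (WBGene00001752; IV, 10142225 to 10143099), a glutathione S-transferase gene widely used as a reporter of oxidative stress, was at 3.27, 5.82 and 8.02 CPM against 6.23, 16.5 and 35.6. Only 2 of the 74 other lines lay at or below the highest batch 4 line, and the fall was -1.61 ± 0.16 (adjusted p 2.18e-13, edgeR). The exons of gst-4 overlap those of dhs-12. The metallothionein gene mtl-2 (WBGene00003474; V, 14018270 to 14018673), whose product binds metals, was at 3.57, 8.425 and 13.4 CPM against 9.39, 26.4 and 50.7, a fall of -1.69 ± 0.18 (adjusted p 1.33e-11, edgeR). The related mtl-1 did not pass, at -1.81 ± 0.68 (adjusted p 0.103, edgeR) and a median of 0.177 CPM against 0.384. The acid sphingomyelinase gene asm-3 fell by 1.64 ± 0.25 and the inositol transporter gene hmit-1.2 fell by 1.48 ± 0.18 (adjusted p 1.11e-06 and 3.43e-10, edgeR).

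At several of the genes that changed, the parents also differ. T22B7.7 (-2.61 ± 0.45; X, 5651865 to 5654074) was at 37.7 to 156.2 CPM in N2 and 3.44 to 10.1 in the CB4856 libraries of other batches. C30G12.2 (-2.01 ± 0.35; II, 7290426 to 7291719) was at 53.0 to 223.2 CPM in N2 and 6.93 to 30.6 in CB4856. The methyltransferase-family gene comt-5 (-2.09 ± 0.32; V, 2052226 to 2053609) was at 1.48 to 2.11 CPM in N2 and 0.870 to 1.02 in CB4856. The annotated pseudogene WBGene00021233 (-3.11 ± 0.64; V, 2304355 to 2309159) was at 0 to 0.288 CPM in N2 and 8.20 to 13.8 in CB4856. For gst-4 the ranges were 14.7 to 33.2 CPM in N2 and 6.63 to 10.2 in CB4856, and for clec-71, which rose, 0.370 to 2.09 and 7.13 to 29.2. At such genes the alleles a line carries and its batch cannot be told apart among the lines alone.

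Many nuclear genes of the respiratory chain were lower in batch 4, by small amounts. Of 44 nuclear genes of the respiratory chain, 0 were higher and 30 lower (68.2%, against 3.66% of all genes tested). Of the 30, 10 were called apart, and the median over the list was -0.20 on the log2 scale. The gene sdhb-1 (WBGene00006433; II, 9350714 to 9352731), for the iron-sulphur subunit of succinate dehydrogenase, was at 203.9, 217.0 and 235.0 CPM in the lowest, median and highest batch 4 lines. The other lines were at 209.6, 256.9 and 318.9 CPM, 9 of the 74 at or below the highest batch 4 line, and the fall was -0.23 ± 0.03 (SE, adjusted p 3.90e-08, edgeR). The complex I gene nuo-4 (WBGene00019401; III, 7156026 to 7158809) was at 220.6, 235.9 and 252.7 CPM against 224.5, 272.3 and 309.0, a fall of -0.19 ± 0.03 (adjusted p 5.34e-07, edgeR). The gene isp-1, for the Rieske iron-sulphur protein of complex III and picked after its values were seen, was at 321 ± 19.3 CPM (SD, n = 11) against 388 ± 35.6 (n = 74). Summed over the list, the level was 11959 to 13922 CPM in batch 4 and 12131 to 17145 in the other lines. Mitochondrial ribosomal protein genes gave 0 higher and 1 lower of 67 (5 lower without the lines of batch 9), and mitochondrial chaperone genes 0 of 9.

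Among the genes called apart with a mean of at least 1 log2 CPM and not among the 10 largest falls, the 3 smallest p-values were those of alh-1, an aldehyde dehydrogenase gene, mdh-2, for malate dehydrogenase, and fum-1, for fumarase. The gene mdh-2 (WBGene00003162; III, 6606544 to 6608106) was at 601.2, 699.8 and 762.3 CPM against 657.9, 861.2 and 998.2, a fall of -0.28 ± 0.03 (SE, adjusted p 1.62e-09, edgeR). The gene fum-1 (WBGene00001503; III, 7465605 to 7467640) was at 250.6, 277.2 and 285.6 CPM against 253.5, 326.0 and 369.7, a fall of -0.23 ± 0.03 (adjusted p 4.33e-09, edgeR). The gene alh-1 (WBGene00000107; III, 5077764 to 5080661) was at 160.3, 177.1 and 201.4 CPM against 190.8, 241.9 and 395.7, a fall of -0.44 ± 0.06 (adjusted p 1.24e-08, edgeR). At each of the 3 genes between 3 and 6 of the 74 other lines lay at or below the highest batch 4 line. With lists drawn up after values were seen, 14 of 23 genes of the citric acid cycle and 12 of 23 of glycolysis and gluconeogenesis were lower, against 3.66% of all genes tested. In either list 0 were higher. Among them pck-2, a phosphoenolpyruvate carboxykinase gene, fell by 0.53 ± 0.08 and the glyceraldehyde-3-phosphate dehydrogenase genes gpd-2 and gpd-3 fell by 0.46 ± 0.07 and 0.47 ± 0.07, though reads of such near-identical copies are partly lost in counting. None of the members of these metabolic lists passed with 1 sum of counts per batch in edgeR.

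Propionate, a product of the breakdown of odd-chain fats and some amino acids, is cleared in C. elegans by a route that needs vitamin B12 and by a shunt that does not. Of 12 genes on both routes, 0 were higher and 9 lower (75%, against 3.66% of all genes tested). Of the 9, 3 were called apart, and the median over the list was -0.37. The gene pcca-1 (WBGene00017864; X, 7657542 to 7660986), for a subunit of propionyl-CoA carboxylase on the B12 route, was at 155.9, 206.6 and 229.7 CPM against 178.7, 268.3 and 347.7 in the other lines. Its fall was -0.36 ± 0.05 (SE, adjusted p 2.03e-08, edgeR), and 3 of the 74 other lines lay at or below the highest batch 4 line. The epimerase gene mce-1, also on the B12 route, fell by 0.49 ± 0.07 (adjusted p 1.83e-07, edgeR). On the shunt, acdh-1, named after its values were seen, was at 205.4 ± 113.7 CPM (SD, n = 11) against 417 ± 190 (n = 74), a fall of -1.004 ± 0.27 (SE, adjusted p 0.010, edgeR). Genes of the methionine and folate cycle gave 0 of 17 (3 lower without the lines of batch 9). Those of fatty acid synthesis gave 1 higher and 2 lower of 21 (0 and 3 without those lines). That is 14.3% of the list, against 6.43% of all genes tested.

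Markers of stage, germline and other tissues were examined beside these groups. In edgeR 0 members passed among 140 cuticle collagens, 29 moulting factors, 28 major sperm proteins, 59 other sperm genes, 29 oocyte and eggshell genes, 6 yolk protein genes, 23 germline genes, 9 intestine genes, 12 neuron genes and 12 pharyngeal cuticle genes, as well as 2 genes of male sensory neurons. Without the lines of batch 9, 11 cuticle collagens were lower. Summed over each list, intestine genes were at 4566 to 7541 CPM in batch 4 and 2436 to 8228 in other lines, and germline genes at 4105 to 4752 and 2561 to 5442. Body muscle was the exception, with 6 of 10 genes lower and a summed level of 8938 to 12056 CPM in batch 4 against 5888 to 16971. Its tropomyosin gene lev-11 fell by 0.32 ± 0.07 and its troponin I gene unc-27 by 0.30 ± 0.08 (SE, adjusted p 0.000821 and 0.0073, edgeR). Muscle and respiratory chain genes thus moved in the same direction, and their part in each other's change was not tested. In whole animals, fewer cells of a type and less RNA per cell cannot be told apart. Cytosolic ribosomal protein genes gave 8 lower of 79, and 62 lower without the lines of batch 9. Proteasome genes gave 0 of 33, chaperones of the endoplasmic reticulum 0 of 15, and core histones 1 lower of 26 (4 without the lines of batch 9). Cytosolic heat shock genes gave 3 lower of 12, and superoxide and peroxide defence genes 4 lower of 24. Metal, hypoxia and osmotic response genes gave 1 lower of 9, of 10 and of 8 (1, 1 and 2 without the lines of batch 9). Over all genes tested 3.66% were lower, and core histones lay near that share at 3.85%. The metal, hypoxia and osmotic counts rest on 1 gene each.

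**Figure D3:**
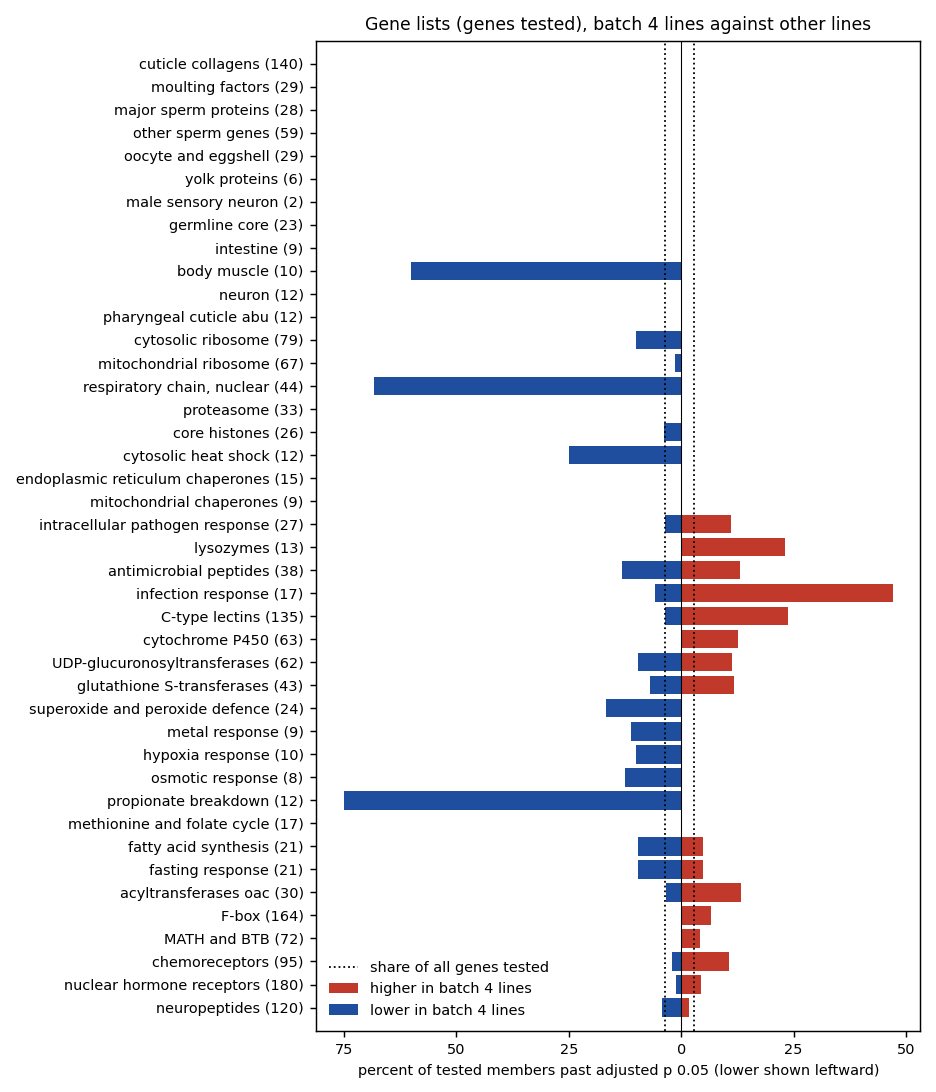
Share of the tested members of each gene list (number tested in brackets) that passed an adjusted p-value of 0.05 in edgeR in batch 4 lines against other lines, higher to the right and lower to the left. Dotted lines give the share over all genes tested, 2.77% higher and 3.66% lower. Propionate breakdown and respiratory chain genes extend furthest to the left, and infection response genes furthest to the right.

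The genes called in the lines were spread over the chromosomes, from 4.56% of the genes tested on chromosome I to 8.03% on V, with 5.82% on II, where the allele share of batch 4 lay outside that of the other batches. Of the 98 higher genes called apart, 38 were on V, which held 3126 of the 15717 genes tested, 24 on IV, which held 2690, and 18 on II, which held 2766.

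CB4856 shifted in batch 4 in the same direction as the lines at most of these genes. CB4856 shares no sample with the lines and played no part in choosing the genes. Its library of batch 4 was above all 6 other CB4856 libraries at 10.6% of the 15717 genes tested in lines and below all 6 at 10.7%. At the 98 genes called apart as higher in the lines it was above all 6 at 90 and below all 6 at 0, and at the 60 called apart as lower it was below all 6 at 52 and above all 6 at 0. Over all 435 genes higher in the lines it was above all 6 at 323 (74.3%), and over the 575 lower it was below all 6 at 275 (47.8%). Its fitted change was above 0 at 96 of the 97 higher genes with a value, against 44.8% of all genes, and below 0 at 58 of the 60 lower genes, against 55.2%. Across the 157 genes called apart with a fold change in CB4856, the log2 changes had a Pearson correlation of 0.96 and a Spearman correlation of 0.96, and across all 15010 genes tested in both 0.61 and 0.44. Genes are not independent replicates, and the points of each axis share libraries, so these values are descriptions.

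**Figure D4:**
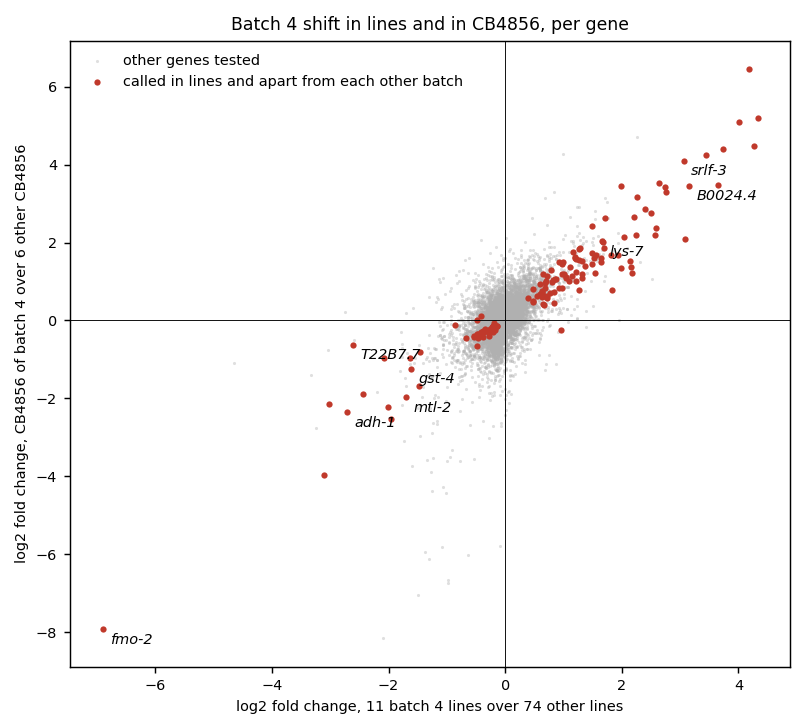
Log2 fold change of each gene in the 11 batch 4 lines over the 74 other lines (x axis) and in CB4856 of batch 4 over the 6 other CB4856 libraries (y axis). Red points are the genes called apart in the lines, grey points the other genes tested. The red points lie along a rising line, with fmo-2 at the lower left.

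Tested on its own, the lone CB4856 library, assumed to vary like the other 6, differed at 18 of 15459 genes (0.116%) in edgeR, 17 higher (0.11%) and 1 lower (0.00647%), and 491 genes had an unadjusted p-value under 0.05. Of the 18, 16 had also passed in the lines in the same direction, among them srlf-37, srlf-3, clec-17, abf-4, abf-5, B0024.4, Y47H9C.1, Y39G8B.9 and the neighbours C01G10.4, C01G10.5 and C01G10.17. In CB4856, srlf-3 was at 20.1 CPM in batch 4 and at 0.783 to 1.53 in the 6 other batches, a rise of 4.10 ± 0.31 on the log2 scale (SE, adjusted p 0.00535, edgeR). B0024.4 was at 59.2 CPM against 3.53 to 7.53, a rise of 3.45 ± 0.36 (adjusted p 0.0212, edgeR). The library thus stood at the median of its batch's lines or above it for both. The gene that was lower was the pseudogene WBGene00021233, at 0.714 CPM against 8.20 to 13.8, a fall of -3.97 ± 0.45 (adjusted p 0.0237, edgeR), in a strain whose genotype is the same in all 7 libraries. The remaining 2, both stress genes, were cdr-4, which responds to cadmium, and hsp-17. The gene cdr-4 was at 54.3 CPM against 13.6 to 21.5 in CB4856, while in the lines its change was 0.26 (adjusted p 0.443, edgeR). The gene hsp-17 was at 48.3 CPM against 16.2 to 22.2, and its change in the lines was 0.31 (adjusted p 0.2502, edgeR). The count of 18 rests on single libraries: it was 3 without the CB4856 library of batch 3, 4 without that of batch 7, 7 without that of batch 8, 8 without that of batch 6 and 37 without that of batch 9.

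For genes that fell, CB4856 gave values as low as those of the lines. Its fmo-2 level was 0.126 CPM in batch 4 and 13.9, 5.78, 9.88, 5.91, 5.50 and 149.6 in batches 2, 3, 6, 7, 8 and 9. The 4 N2 libraries, all from other batches, were at 0.452, 0.702, 0.801 and 12.99 CPM in batches 3, 6, 8 and 9. The highest batch 4 line was at 0.391 CPM, so N2 outside batch 9 was also low and only little above it. For gst-4 CB4856 was at 3.66 CPM in batch 4 against 6.63 to 10.2, and for mtl-2 at 4.24 against 9.35 to 22.5. For lys-7, which rose, it was at 147.0 CPM against 25.8 to 50.2. None of these 4 genes passed in CB4856 alone (adjusted p 0.999, 0.387, 0.737 and 0.0745, edgeR). Of the 26 genes with the largest changes or smallest p-values in the lines, CB4856 of batch 4 lay outside the range of the 6 others at 25, in the direction of the lines, and within it at T22B7.7, at 4.16 CPM against 3.44 to 10.1.

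Group by group, CB4856 of batch 4 was above all 6 others at 20 of the 32 higher lectin genes, 8 of the 8 higher infection response genes and 3 of the 3 higher lysozyme genes. It was below all 6 at 24 of the 30 lower respiratory chain genes, 5 of the 9 lower propionate genes and 2 of the 6 lower body muscle genes. At the 5 lower lectin genes it was below all 6 at 0. Among antimicrobial peptides it was above all 6 at 4 of the 5 higher genes and below all 6 at 0 of the 5 lower. The median log2 change of CB4856 over all tested members was 1.28 for infection response genes, where the lines had 0.92, and -0.19 for respiratory chain genes, where the lines had -0.20. For propionate genes it was -0.16 against -0.37 in the lines, with acdh-1 at -0.13 against -1.004. For stage lists, where no difference between the shifts was tested on the lists, the median of CB4856 was 0.84 for moulting factors and -0.73 for major sperm proteins, where the lines had 0.27 and -0.22.

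Whether the shift of the lines differs from that of CB4856 was tested as an interaction over 16080 genes. In edgeR 0 genes passed an adjusted p-value of 0.05 (0% called), and 81 had an unadjusted p-value under 0.05. The test took 1 spread per gene over the lines and CB4856 together, and CB4856 had 1 library in batch 4, so the errors are wide. The lack of genes past the threshold does not show that the shifts are alike. For fmo-2 the lines minus CB4856 gave 1.03 ± 4.20 on the log2 scale (SE) and for B0024.4 -0.30 ± 1.28. Fitted apart, B0024.4 had an SE of 0.31 in the lines and 0.36 in CB4856.

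**Figure D5:**
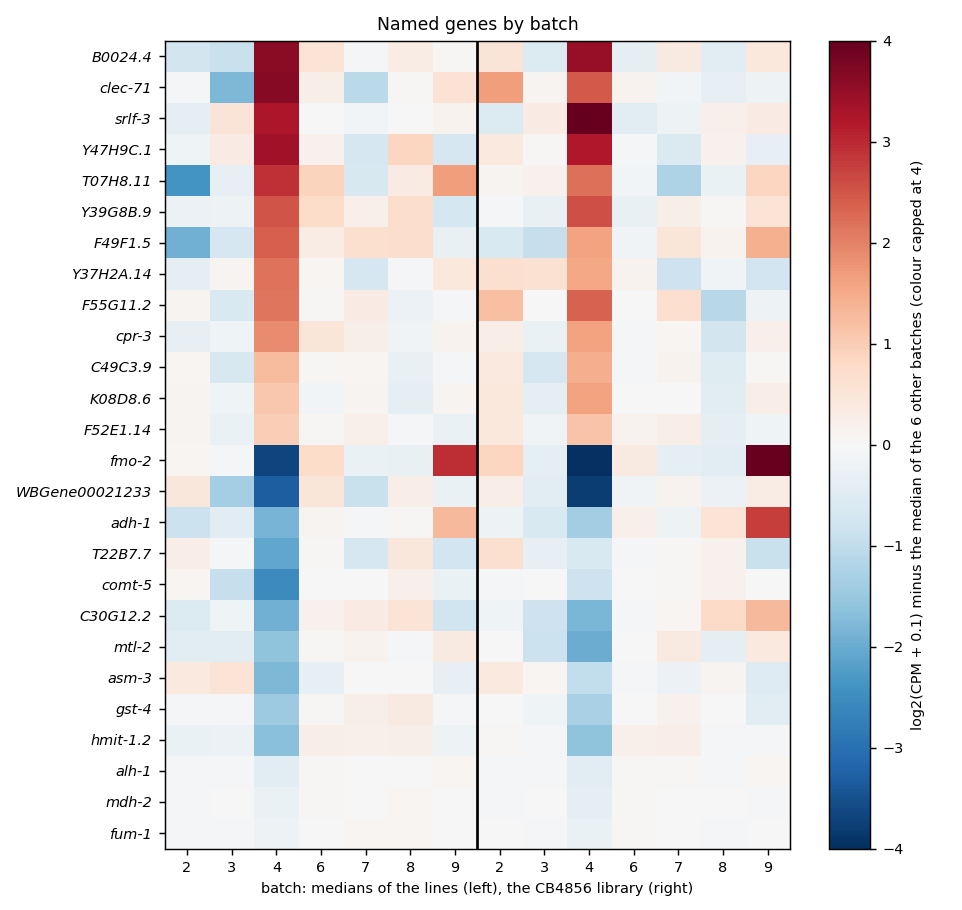
The 26 named genes (rows) by batch, as medians of the lines (left 7 columns) and as the CB4856 library (right 7 columns). Colour gives log2(CPM + 0.1) minus the median of the 6 other batches, capped at 4. Batch 4 is the red or blue column on both sides for nearly all rows, and batch 9 is high for fmo-2 and adh-1.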

How the data were processed

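Total RNA of 96 whole-worm samples was sequenced. The submitters' processing notes name FastQC, STAR 2.73a, DESeq2 and the build WBcel235, with no role or order. The deposited files hold raw read counts per gene in the layout of STAR's gene counting, for 46904 genes a library. Here the count without regard to strand was used, so reads of overlapping genes cannot be separated. Reads mapping to several places, 3.86% to 7.46% of a library, and reads outside genes stayed out of library sizes. Names and positions came from an Ensembl WBcel235 annotation, in which 46817 genes were found.

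Samples were grouped by strain and batch number in the titles. Counts were filtered with filterByExpr, normalised by TMM and tested with edgeR 4.0.16 (R 4.3.3, robust quasi-likelihood F-test) with Benjamini-Hochberg adjustment over all genes tested and a threshold of 0.05. DESeq2 1.42.0 and the other settings in the closing section were alternatives. Error on fold changes is the standard error. Leading components were computed from the 2000 most variable genes. The scripts were tested on simulated data.

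Named genes were of 2 kinds. From genes that passed against all other lines and against each other batch, with a mean of at least 1 log2 CPM over the 85 lines, the 10 largest changes and, of those not yet named, the 3 smallest p-values in each direction were taken. From each gene list the 2 tested members with the smallest p were taken, whatever their level or call. The members and lists were chosen with earlier results of these data known. A list of genes on mitochondrial DNA gave no match to the annotation's symbols. Since each line has 1 library, p-values measure the spread between lines, some of which may be technical.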

Additional observations from a re-analysis of the deposited data

Results flagged for a closer look

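Within the 7 CB4856 libraries and the 4 N2 libraries, the 26 named genes were searched for a library far from the others of its strain, by the gap to its nearest neighbour relative to the whole range. In 52 groups examined chance gives about 1 in 20 such values. The CB4856 library of batch 4 stood far above the other 6 at B0024.4 (59.2 CPM against 3.53 to 7.53), srlf-3 (20.1 against 0.783 to 1.53), Y47H9C.1 (21.1 against 1.42 to 2.92), Y39G8B.9 (5.67 against 0.680 to 1.30), cpr-3 (26.98 against 5.29 to 10.6) and K08D8.6 (121.7 against 29.3 to 53.6). It stood far below them at WBGene00021233 (0.714 CPM against 8.20 to 13.8), comt-5 (0.462 against 0.870 to 1.02), gst-4 (3.66 against 6.63 to 10.2), hmit-1.2 (3.36 against 9.95 to 12.6), alh-1 (173.0 against 217.1 to 245.2), mdh-2 (638.9 against 785.1 to 836.4) and fum-1 (257.1 against 297.1 to 317.3). Each of these lies on the side on which the batch 4 lines differ from the other lines.

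In N2, the library of batch 9 stood far above the other 3 at fmo-2 (12.99 CPM against 0.452 to 0.801) and adh-1 (246.7 against 36.6 to 43.9), the genes that were also high in the lines of batch 9. The N2 library of batch 6 was high at fum-1 (340.5 CPM against 289.4 to 297.3).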

How the results depend on the processing

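The 1010 genes that separated the batch 4 lines from the other lines became 1952 with component 1 as a covariate, 1608 without the lines of batch 9, 183 with a fold change of at least 2 required and 11 with 1 sum of counts per batch, where 1 sum stands against 6. It was 727 without the lines of batch 8, 898 without those of batch 6 and up to 1285 without those of batches 2, 3 or 7 in turn. Without a line of batch 4 the count ran from 881 to 1004, and by DESeq2 it was 1227. The 99 higher and 60 lower genes apart from each other batch became 263 in all without the lines of batch 9, where 5 comparisons rather than 6 had to pass, and ran from 135 to 164 without a line of batch 4. The 18 genes of CB4856 became 2 with a mean of at least 1 log2 CPM required and 63 by DESeq2, and ran from 3 to 37 without one of the other CB4856 libraries. The test of the difference between both shifts gave 0 genes in edgeR under RLE normalisation, both other filters and the covariate. Other causes of these moves were not tested. Of the 26 genes named for their size or p-value, 601 checks kept the direction and the call, and 23, all with 1 sum of counts per batch, kept the direction and missed the threshold. No paired analysis was possible between batches, because the shared number of the CB4856 and N2 libraries is the batch number, which was compared. N2 also has no library in batch 4. CB4856 stands beside the lines in each batch, so the test of the difference between both shifts could have matched them within batches. A fit with that matching was not among the settings, so its result was not tested.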
